A study of Drosophila melanogaster with 72 samples.

Results

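The 3 NF-kappaB transcription factors of Drosophila melanogaster, dorsal (dl, FBgn0260632), Dorsal-related immunity factor (Dif, FBgn0011274) and Relish (Rel, FBgn0014018), and their inhibitor cactus (cact, FBgn0000250) were followed across 6 mitochondrial haplogroups and 6 Y haplotypes in whole males. The 4 genes were chosen by FlyBase symbol from the 17324 features of the count table, and all 4 passed the filter on low counts. dl differed among Y haplotypes and was highest with the Y haplotype N03, where it was 1.57-fold above the mean of the other 5 haplotypes. In edgeR, DESeq2 and limma-voom, neither the test over the 6 Y haplotypes nor that over the 6 haplogroups called Dif, Rel or cact, whereas for Dif in haplogroup B38 alone the tools differed.

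Females of 6 mitochondrial replacement lines were crossed with males of 6 Y replacement lines, and RNA of their sons was sequenced from the 3' end of polyadenylated transcripts. The Y haplotypes were N03 and N07 from the Netherlands, B04 and B11 from Beijing, and ZH23 and ZW139 from Zimbabwe, all lines of the Global Diversity panel. Mitochondria came from Beijing in haplogroups B38 and B39, from Ithaca in I02, and from the Netherlands in N01, N02 and N23. All groups shared the nuclear background 4361, were untreated, and were pools of 10 males aged 3 to 5 days. Each of the 36 combinations had 2 biological replicates, each from its own cross, so every haplotype was represented by 12 of 72 libraries. By the labels, replicate 2 of each combination with N01, N02 or N23 belonged to batch 2, 18 libraries in all, and the other 54 libraries to batch 1.

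NF-kappaB factors wait in the cytoplasm until a signal lets them enter the nucleus and switch on target genes. In the Toll pathway, binding of the ligand Spätzle to the receptor Toll leads to the destruction of Cactus, which frees Dorsal and Dif. Dorsal is best known for setting the dorsal-ventral axis of the embryo, and Dif for the response of adults to fungi and Gram-positive bacteria. In the Imd pathway, peptidoglycan receptors such as PGRP-LC trigger cleavage of Relish, which carries its own inhibitory ankyrin repeats. The fat body, the blood cells and the gut are the main tissues of these responses, and antimicrobial peptides are the best known targets.

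The libraries held 2454024 to 7671784 counts in genes, with a median of 4792638. Reads aligned to several places made up 9.68% to 35.5% of the reads, with a median of 12.3%, and exceeded 20% in 6 libraries. Those 6 were replicate 1 of B38 with N03, of B38 with N07, of B38 with B04, of B38 with B11, of I02 with N03 and of N23 with B04. One library stood apart from its label. The antisense RNA asRNA:CR44894 was at 30.8 CPM (counts-per-million, scaled to the library's counts in genes) in replicate 2 of N23 with N03, against 0 to 1.88 in the other 11 N23 libraries, while libraries of B38, N01 and N02 had at least 14.1 and a median of 33.2. The results on dl with N03 below are given with and without these libraries, as are haplogroup means of the 4 NF-kappaB genes where stated. Means of pathway and peptide genes include all libraries. The label of whole males was met by the dosage compensation RNA lncRNA:roX1, at 330 to 1801 CPM in every library, and 4 of 9 ovary markers, among them osk and Vm26Aa, had a median of 0 CPM. The ovary markers grk, at 6.80 to 26.9 CPM, and Cp15, at 2.80 to 25.3 CPM, were detected in every library.

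dl lies on the minus strand of chromosome arm 2L at 17436830 to 17450364 in assembly BDGP6.54, has 6 annotated transcripts and overlaps no other gene. Dif lies on the same strand of 2L at 17413248 to 17433161, with 4 transcripts. The 2 genes are separated by 3668 bases, in which CG5043 and CG33928 are annotated. cact is also on the minus strand of 2L, at 16313036 to 16326207, with 5 transcripts. Rel is on the minus strand of 3R at 9044183 to 9047977, with 4 transcripts, inside Nmdmc, with which it shares no exon bases. The 3' end of Dif shares 252 exon bases with CG15141, and that of cact shares 62 with fzy, both on the opposite strand. The strand setting of the counting is not given in the sources used here, so reads in those overlaps could have been counted for either gene or as ambiguous.

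Levels below are TMM-scaled counts-per-million values (CPM). They come from 3' ends and are not divided by gene length, so they are compared between groups of flies and not between genes. Over the 72 libraries, dl averaged 38.3 ± 12.2 CPM, Dif 25.9 ± 6.84 CPM, Rel 74.8 ± 16.1 CPM and cact 89.1 ± 20.9 CPM (SD, n = 72). Behind these levels were 76 to 358 counts of dl, 38 to 209 of Dif, 202 to 639 of Rel and 198 to 955 of cact per library. In whole flies, fewer cells of a type and less RNA per cell cannot be told apart.

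dl, the factor that patterns the embryo and shares immune functions with Dif, ranged from 29.9 to 95.6 CPM with Y N03, with a median of 51.0 CPM. With the other 5 Y haplotypes it ranged from 14.3 to 55.9 CPM over 60 libraries, with a median of 36.2 CPM. The groups overlapped, but 11 of 12 N03 libraries lay above the median of the others and 5 lay above all 60. In turn, 1 of the 60 other libraries, replicate 1 of B39 with N07, exceeded the N03 median.

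By haplotype, dl averaged 55.3 ± 17.6 CPM with N03, 38.5 ± 4.19 with ZW139, 36.4 ± 7.82 with N07, 35.2 ± 6.66 with ZH23, 32.3 ± 7.52 with B11 and 32.2 ± 8.19 with B04 (SD, n = 12 each). From ZW139 downwards, the means of neighbouring haplotypes differed by less than 1 SD of either. The gap between N03 and ZW139 was larger than the SD of ZW139 and slightly smaller than that of N03. The level with N07, the other Y haplotype from the Netherlands, was among those of the 4 Y haplotypes from Beijing and Zimbabwe.

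**Figure D1:**
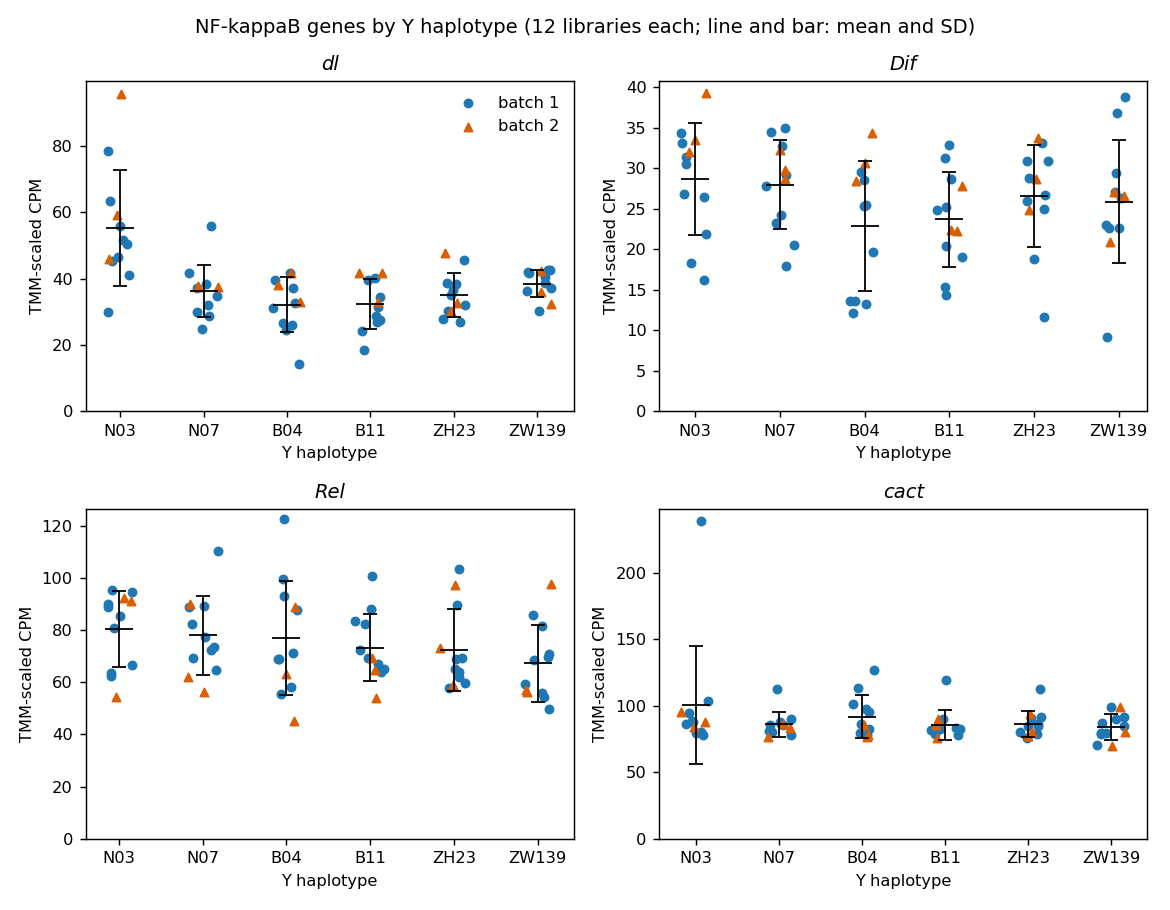
Levels of the 4 NF-kappaB genes (y axis: TMM-scaled CPM) by Y haplotype (x axis), with 1 point for each library, circles for batch 1, triangles for batch 2, and the mean and SD of 12 libraries as lines and bars. dl averaged 55.3 CPM with N03 and 32.2 to 38.5 CPM with the other haplotypes, whereas the haplotypes overlapped widely for Dif, Rel and cact apart from the single library of cact at 239 CPM.

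The difference of dl among Y haplotypes passed the test (F = 9.66, edgeR quasi-likelihood test, Benjamini-Hochberg adjusted p = 0.000514), as it did for 1 of the 4 NF-kappaB genes and for 4.15% of the 12470 genes tested. By p-value dl ranked 85 among them. The log2 fold change with N03 over the mean of the other 5 haplotypes was 0.65 ± 0.10 (SE; 95% interval 0.45 to 0.84; edgeR adjusted p = 0.000422). That contrast called 0.152% of genes, 19 in all, and dl had the second smallest p-value among them, after Sans, which encodes a scaffold protein, at 1.81 ± 0.14. With the 12 N03 libraries left out, an alternative chosen after seeing the data, the Y haplotype test of dl had an adjusted p of 0.409.

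The higher level with N03 recurred across haplogroups. The 2 N03 libraries had 59.2 and 63.6 CPM in N02, 45.9 and 55.9 in N01, and 41.1 and 51.6 in B39. The other 10 libraries of those haplogroups averaged 37.2 CPM in N02, 33.4 in N01 and 33.4 in B39. In N02 and N01 both N03 libraries stood above all 10 others, which reached at most 41.8 and 42.7 CPM.

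In I02 the N03 libraries had 46.6 and 78.6 CPM, against a mean of 33.9 and a maximum of 42.6 in the other 10. In N23 they had 50.3 and 95.6 CPM, against a mean of 38.4 and a maximum of 47.9. B38 differed from this order: its N03 libraries had 29.9 and 45.5 CPM, against 14.3 to 45.8 CPM with a mean of 33.1 in the others. The N03 mean was the highest of the 6 Y haplotypes in 5 of 6 haplogroups and ranked 3 in B38. The lowest N03 library overall was the B38 library of N03 named above among those over 20%.

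**Figure D2:**
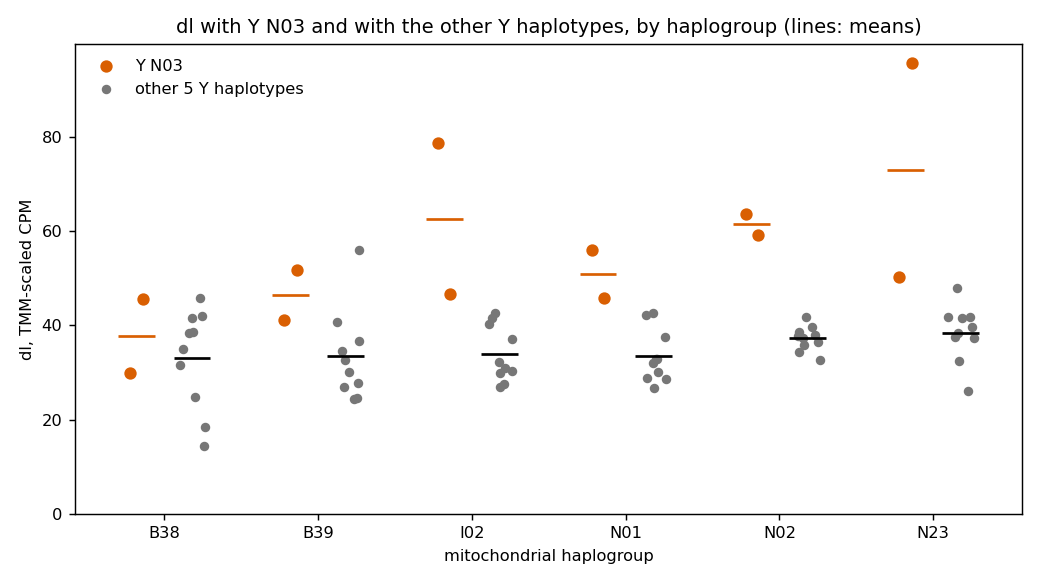
Level of dl (y axis: TMM-scaled CPM) in each mitochondrial haplogroup (x axis), with the 2 libraries of Y N03 in orange at the left and the 10 libraries of the other Y haplotypes in grey at the right, and lines for the means. The orange mean lies above the black one in all 6 haplogroups, from 37.7 against 33.1 CPM in B38 to 73.0 against 38.4 CPM in N23.

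The 2 highest values of dl belonged to libraries described above as standing apart, replicate 2 of N23 with N03 at 95.6 CPM and replicate 1 of I02 with N03 at 78.6 CPM. Without the first, the N03 log2 fold change was 0.57 ± 0.10 (edgeR adjusted p = 0.0149), and without the second 0.57 ± 0.10 (edgeR adjusted p = 0.00816). Without the 6 libraries over 20% it was 0.57 ± 0.08 (edgeR adjusted p = 0.000262). Without those 6 and the N23 library together, it was 0.49 ± 0.08 (edgeR adjusted p = 0.00455).

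Within batches the direction was the same and neither call was kept. The N03 log2 fold change of dl was 0.62 ± 0.14 in batch 1 alone (edgeR adjusted p = 0.180) and 0.80 ± 0.14 in batch 2 alone (edgeR adjusted p = 0.0980). Over all alternatives that kept N03 libraries, the adjusted p of this contrast ranged up to 0.180, the value of batch 1. Batch 1 alone and batch 2 alone called 2 genes each in that contrast.

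Comparing populations of the Y chromosome, dl was lower with Y chromosomes from Beijing than with those from the Netherlands, at −0.47 ± 0.10 on the log2 scale (edgeR adjusted p = 0.00381). It was the 1 called gene of the 4, where 3.16% of all genes were called. Without the N03 libraries, so that Beijing was set against N07 alone, the difference was −0.19 ± 0.11 (edgeR adjusted p = 0.455). Without the 6 libraries over 20% it was −0.39 ± 0.08 (edgeR adjusted p = 0.0122), and without those and the N23 library −0.34 ± 0.07 (edgeR adjusted p = 0.0213). Within batches it was −0.50 ± 0.14 in batch 1 (edgeR adjusted p = 0.141) and −0.39 ± 0.14 in batch 2 (edgeR adjusted p = 0.480). For Y chromosomes from Zimbabwe against the other 4 haplotypes, the difference of dl was −0.04 ± 0.08 (edgeR adjusted p = 0.873), in a contrast that called 0.0321% of genes.

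Dif, the Toll-pathway factor of the adult immune response and a neighbour of dl, had 16.2 to 39.2 CPM with N03, with a median of 30.9, and 9.13 to 38.7 CPM with the other haplotypes, with a median of 26.4. The ranges overlapped almost fully, with 8 of 12 N03 libraries above the median of the others. Its means ran from 28.6 ± 6.93 with N03 through 28.0 ± 5.48 with N07, 26.6 ± 6.26 with ZH23, 25.8 ± 7.60 with ZW139 and 23.7 ± 5.88 with B11 to 22.9 ± 7.98 CPM with B04 (SD, n = 12 each). Neighbours in this order all differed by less than their SD. The Y haplotype test gave an adjusted p of 0.505 in edgeR.

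The log2 fold change of Dif with N03 was 0.18 ± 0.13 (95% interval −0.06 to 0.43; edgeR adjusted p = 0.669). For Y chromosomes from Beijing against those from the Netherlands, it was −0.29 ± 0.12 (edgeR adjusted p = 0.133). That difference passed the threshold when replicate 2 of N23 with B04 was left out (edgeR adjusted p = 0.0481), and over the 72 fits that each left out 1 library its adjusted p ranged from 0.0481 to 0.265. The library with the highest dl, replicate 2 of N23 with N03, also had the highest Dif.

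Rel, the factor of the Imd pathway, had 54.2 to 95.3 CPM with N03, with a median of 87.3, and 45.1 to 123 CPM with the other haplotypes, with a median of 69.2. All N03 values lay inside the range of the others. Its means were 80.5 ± 14.6 with N03, 78.1 ± 15.1 with N07, 76.9 ± 22.0 with B04, 73.3 ± 12.8 with B11, 72.5 ± 15.6 with ZH23 and 67.3 ± 14.8 CPM with ZW139 (SD, n = 12 each). Every haplotype lay within 1 SD of the next. The Y haplotype test of Rel gave an adjusted p of 0.604 in edgeR, and the N03 log2 fold change was 0.14 ± 0.09 (95% interval −0.05 to 0.33; edgeR adjusted p = 0.662).

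cact, the inhibitor that holds Dorsal and Dif in the cytoplasm, had 78.2 to 239 CPM with N03, with a median of 87.9, and 70.0 to 127 CPM with the other haplotypes, with a median of 84.5. Its spread with N03 came from 1 library, replicate 1 of I02 with N03, at 239 CPM, which is one of the 6 over 20%. The means were 101 ± 44.2 with N03 and 84.1 to 91.9 CPM with the other haplotypes, whose SDs were 9.21 to 15.9 (n = 12 each). The Y haplotype test gave an adjusted p of 0.550 in edgeR. The N03 log2 fold change of cact was 0.17 ± 0.08 (95% interval 0.01 to 0.33; edgeR adjusted p = 0.469). Without that library it was 0.02 (edgeR adjusted p = 0.994). Without its partner, replicate 2 of the same combination, it was 0.26 and passed the threshold (edgeR adjusted p = 0.0301). The difference between dl and the other 3 genes in their N03 fold changes was not itself tested.

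**Figure D3:**
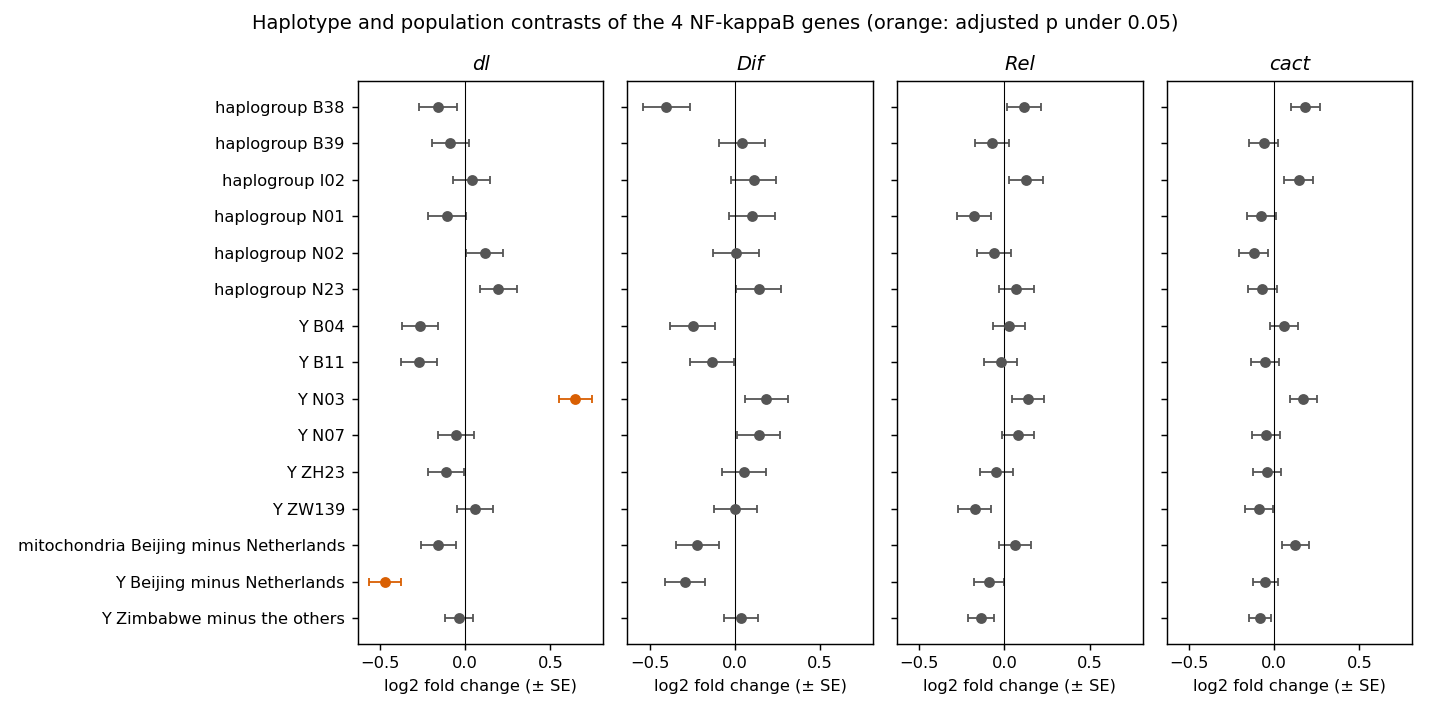
Log2 fold changes with standard errors (x axis) of dl, Dif, Rel and cact in 12 contrasts of a haplotype over the mean of the other 5 of its kind and in 3 population contrasts (rows), in orange where the edgeR adjusted p was under 0.05. The 2 orange points both belong to dl, at 0.65 for Y N03 and −0.47 for Y Beijing minus Netherlands, and the points of Rel and cact stay between −0.18 and 0.18.

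Mitochondrial haplogroups were compared in the same fit. None of the 4 genes was called by edgeR, DESeq2 or limma-voom, where 2.04% of all genes were in edgeR. Of the 4, 0 had an unadjusted p under 0.05, against 15.9% of all genes. The edgeR adjusted p was 0.635 for dl, 0.469 for Dif, 0.662 for Rel and 0.514 for cact. dl had its highest mean in N23, at 44.2 ± 17.4 CPM, and its lowest in B38, at 33.8 ± 10.3 CPM (SD, n = 12 each), with the other 4 haplogroups between 35.6 and 41.3 CPM. Each step in this order was smaller than the SDs of the haplogroups beside it. Both ends of the order rested on the libraries described above. Without replicate 2 of N23 with N03, N23 averaged 39.5 ± 6.65 CPM of dl (SD, n = 11), and N02 was highest at 41.3 CPM. Without the 6 libraries over 20%, B38 averaged 39.8 ± 4.92 CPM (SD, n = 8), and the log2 fold change of dl in B38 over the mean of the others was 0.0676, against −0.158 with all libraries. Rel averaged between 66.5 CPM in N01 and 80.9 CPM in I02, with SDs of 11.9 to 20.6, and cact between 82.2 CPM in N02 and 99.3 CPM in I02, where the SD was 45.3. Rel in B38 averaged 80.5 CPM with all libraries and 72.5 ± 10.4 CPM without the 6 over 20% (SD, n = 8). Without replicate 1 of I02 with N03, I02 averaged 86.6 ± 11 CPM of cact (SD, n = 11), and B38 was highest at 98.5 CPM.

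Dif was lowest in B38. It had 9.13 to 30.8 CPM there, with a mean of 20.02 ± 6.91, against means of 25.9 to 28.7 CPM in the other 5 haplogroups (SD, n = 12 each). The ranges overlapped, and the log2 fold change of B38 over the mean of the others was −0.40 ± 0.14 (edgeR adjusted p = 0.0550), in a contrast that called 9.73% of all genes and 0 of these 4. That contrast called 1213 of 12470 genes with all libraries, but 50 of 12683 without the 6 libraries over 20%, of which 4 are of B38. With DESeq2 the adjusted p was 0.0327, with limma-voom 0.0466 and without a batch term 0.0345. Without the 6 libraries over 20%, it was 0.379, the highest of all alternatives, with a log2 fold change of −0.36. Dif then averaged 22.0 ± 7.57 CPM in B38 (SD, n = 8). For cact the difference of B38 was 0.18 ± 0.08 (edgeR adjusted p = 0.163). With the replicate number as a block it was 0.23 ± 0.08 and passed the threshold (edgeR adjusted p = 0.0314).

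**Figure D4:**
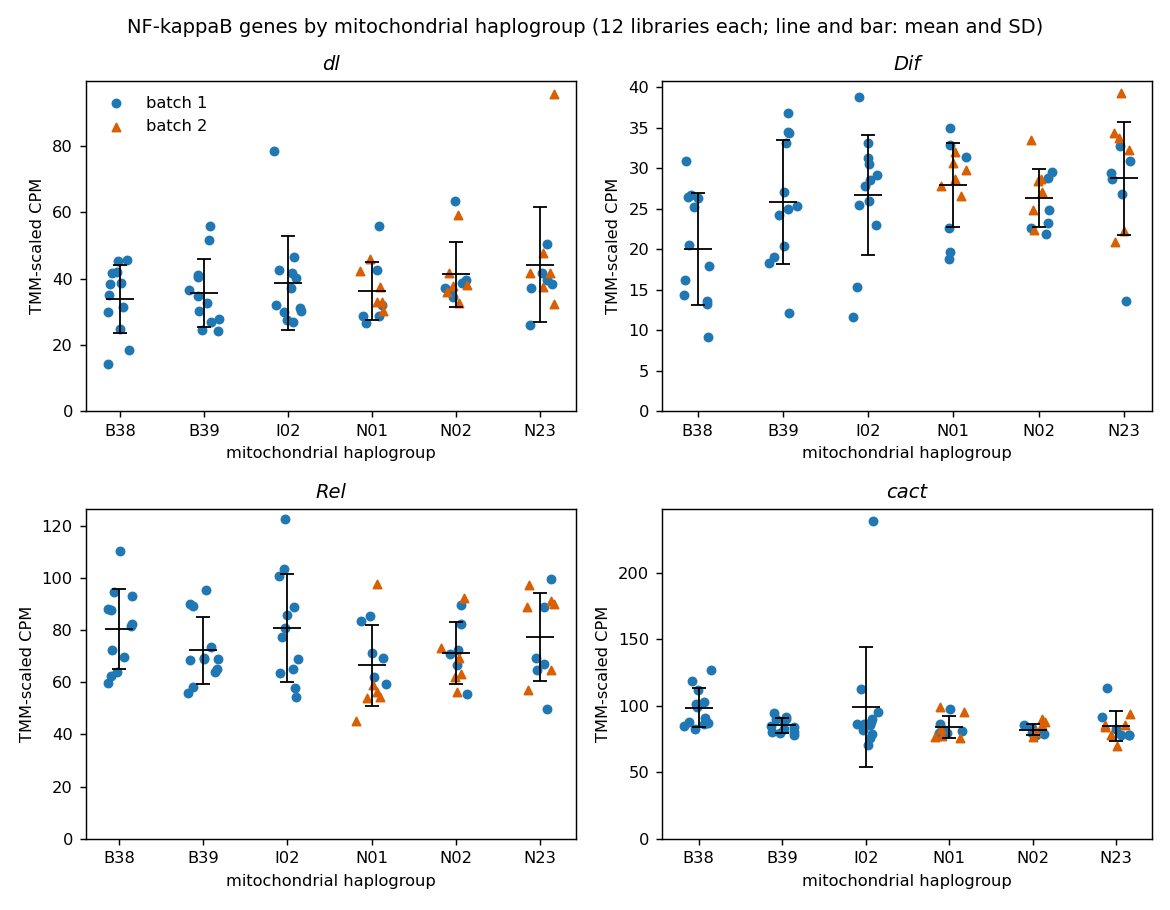
Levels of the 4 NF-kappaB genes (y axis: TMM-scaled CPM) by mitochondrial haplogroup (x axis), with 1 point for each library, circles for batch 1, triangles for batch 2, and the mean and SD of 12 libraries as lines and bars. Dif averaged 20.02 CPM in B38 and 25.9 to 28.7 CPM in the other haplogroups, and batch 2 is present in N01, N02 and N23 alone.

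For the single haplotypes other than N03 and B38, 0 of the 4 genes were called. The share of all genes called was 0.0642% for B39, 0.401% for I02, 0.0401% for N01, 0.0241% for N02, 0.144% for N23, 0.0561% for Y B04, 2.46% for Y B11, 0.016% for Y N07, 1.36% for Y ZH23 and 0.168% for Y ZW139. For dl, both Y haplotypes from Beijing were below the mean of the others, B11 at −0.27 ± 0.11 (edgeR adjusted p = 0.232) and B04 at −0.27 ± 0.11 (edgeR adjusted p = 0.165). That mean includes the high level with N03. ZH23 and N07 were also below it, at −0.11 ± 0.11 and −0.05 ± 0.10, and ZW139 was above, at 0.06 ± 0.10.

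Within B38, the 4 libraries over 20% stood apart from the other 8 in 3 of the 4 genes. They had 14.3 to 29.9 CPM of dl, against 31.6 to 45.8 CPM in the other 8. They had 88.0 to 110 CPM of Rel, against 59.8 to 87.6 CPM, and 103 to 127 CPM of cact, against 82.5 to 101 CPM. So dl was lower and Rel and cact were higher in these 4 libraries, with no overlap between the 2 sets. Dif overlapped, at 13.2 to 20.5 CPM in the 4 and 9.13 to 30.8 CPM in the 8. The part of the share of reads aligned to several places in these levels was not tested.

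The interaction of haplogroup and Y haplotype called none of the 12470 genes in edgeR, which is 0%, with 239 genes at an unadjusted p under 0.05, and 15 genes in DESeq2. For the 4 NF-kappaB genes the edgeR adjusted p was 1. No difference of the N03 effect on dl between haplogroups, such as that between B38 and N23, was thus detected, with 2 libraries for each combination.

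Sums of squares of log2 CPM give the same comparison as shares of each gene's variance. The Y haplotype took 38.8% of the variance of dl, 9.15% of that of Dif, 7.75% of that of Rel and 7.43% of that of cact. The median over all tested genes was 8.99%, and the share of dl exceeded that of 99.6% of them. The haplogroup took 6.79% for dl and 8.50% to 12.6% for the other 3 genes, against a median of 7.38%. Differences between the 2 libraries of a combination took 31.0% for dl and 45.4% to 50.2% for Dif, Rel and cact, against a median of 45.0%.

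The genes around dl on 2L were examined in the N03 contrast, within 100 kb on either side. Of 29 other tested genes there, 0 were called in that contrast in edgeR, against 0.152% of all genes. An unadjusted p under 0.05 was found for 3, against 9.98% of all genes. In the Y haplotype test 1 was called, Dhc36C, a dynein heavy chain gene (edgeR adjusted p = 0.0160), against 4.15% of all genes. The median log2 fold change of the 29 with N03 was 0.07, in a range of −0.32 to 0.76, against a median of 0.01 over all tested genes. The closest gene on the side of Dif, CG5043, was at 0.53 ± 0.27 (edgeR adjusted p = 0.510). On the other side the closest, CG5050, was at −0.06 ± 0.13 (edgeR adjusted p = 0.912) and BicD at 0.09 ± 0.13 (edgeR adjusted p = 0.863). Between these 2, SPH93 was at 0.49 ± 0.44 (edgeR adjusted p = 0.761) and CG18563 at 0.76 ± 0.37 (edgeR adjusted p = 0.486), with standard errors several times that of dl.

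**Figure D5:**
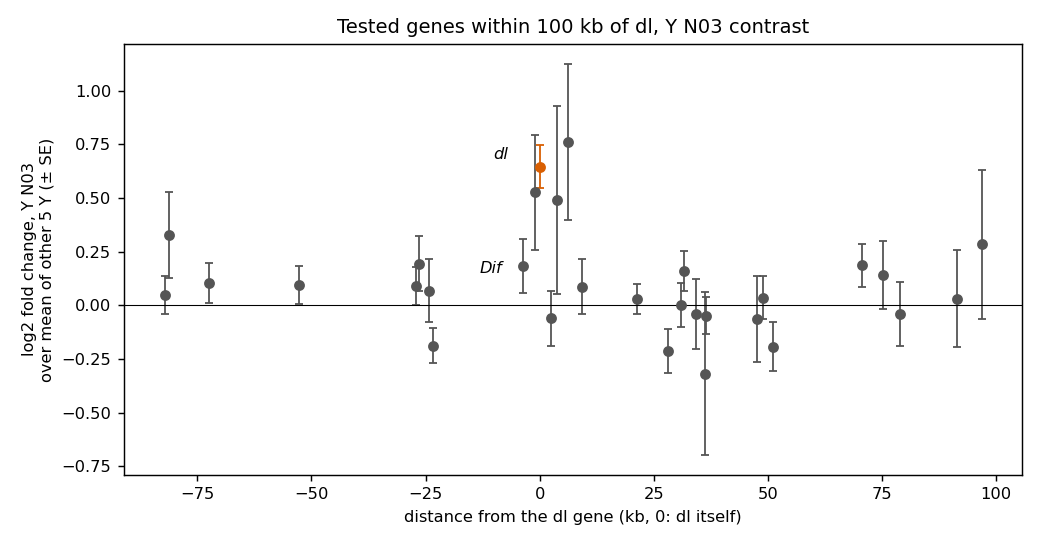
Log2 fold change with Y N03 over the mean of the other 5 Y haplotypes, with standard errors (y axis), of dl in orange and of the 29 other tested genes within 100 kb in grey, by distance from the dl gene (x axis, kb). Grey points range from −0.32 to 0.76, and the 3 nearest to the height of dl lie within 10 kb of it and have wider errors.

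Over the 72 libraries, dl and Dif varied together, with a Pearson r of 0.434 and a Spearman rho of 0.401 between their log2 CPM (permutation p adjusted over 6 pairs, 0.00072 and 0.00153). The r was 0.383 in batch 1 (n = 54), 0.588 in batch 2 (n = 18), 0.340 without the 2 libraries farthest from the median of dl, and 0.259 without the 6 libraries over 20%. Rel and cact also varied together, with r = 0.388 and rho = 0.457 (permutation p adjusted over 6 pairs, 0.00159 and 0.00042). Their r was 0.365 in batch 1, 0.516 in batch 2, 0.36 without the 2 libraries farthest from the median of Rel and 0.387 without the 6 libraries. Depth and RNA composition are shared by all genes of a library. The permutations took all 72 libraries as exchangeable and did not keep combinations, haplotypes or batches together.

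Dif and its inhibitor cact were inversely related over all libraries, with r = −0.285 and rho = −0.282 (permutation p adjusted over 6 pairs, 0.0375 and 0.0345). The r was −0.288 in batch 1 (n = 54) and had the opposite sign in batch 2, at 0.228 (n = 18). Without the 2 libraries farthest from the median of Dif it was −0.23. The 6 libraries over 20% had medians of 15.3 CPM of Dif and 116 CPM of cact. The other 66 libraries had medians of 27.0 and 84.2 CPM, and the ranges overlapped for both genes. Without the 6 libraries the r of Dif and cact stayed negative, but their part in this relation was not tested. The pairs dl and Rel, dl and cact, and Dif and Rel had r of −0.03, −0.01 and −0.14, and none passed the permutation test (adjusted p of r 0.901, 0.901 and 0.343). These too differed between batches, at −0.20, −0.04 and −0.21 in batch 1 and 0.58, 0.45 and 0.39 in batch 2.

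The genes whose pattern over the 72 libraries was most like each factor were ranked by Pearson r after removing the batch effect, among 9848 genes of sufficient level. For dl they were RagA-B, a Rag GTPase of nutrient signalling, at r = 0.717 and rho = 0.595, Ddx56, a helicase gene, at 0.650 and 0.478, and CG31523 at 0.636 and 0.521. For Dif they were CG18190 at 0.873 and 0.726, the mitochondrially encoded mt:CoIII, a cytochrome c oxidase subunit, at 0.868 and 0.778, and CG15128 at 0.859 and 0.715. Each of these exceeded the r of 0.407 between dl and Dif on the same scale.

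For Rel the most alike were Rilpl at r = 0.652 and rho = 0.628, PGRP-LF, a receptor that dampens the Imd pathway, at 0.636 and 0.631, and tamo, whose product is known to limit the nuclear entry of Dorsal, at 0.624 and 0.605. For cact they were Mrtf, a coactivator of serum response factor, at 0.819 and 0.555, the ribosomal protein gene RpS27 at 0.794 and 0.425, and lncRNA:CR31781 at 0.781 and 0.493. For all 3, rho lay further below r than for the genes most like dl, Dif and Rel, and cact is the gene with 1 library far above the rest.

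The rest of the Toll pathway, from recognition proteins to kinases, was counted as a list of 19 genes, all tested. In the Y haplotype test 0 of 19 were called by edgeR, DESeq2 or limma-voom, against 4.15% of all genes in edgeR. An unadjusted p under 0.05 was found for 1, against 19.9% of all genes. With N03 0 of 19 were called by edgeR, against 0.152% of all genes. Of the 19, 0 had an unadjusted p under 0.05 with N03, against 9.98% of all genes, and the median log2 fold change was −0.04. In the haplogroup test 1 of 19 was called, against 2.04% of all genes. That gene was PGRP-SD, a secreted sensor of bacterial peptidoglycan (edgeR adjusted p = 0.00185). It averaged 19.6 CPM in B38, 18.3 in B39, 18.5 in I02, 8.69 in N01, 7.60 in N02 and 10.2 in N23, with SDs of 3.33 to 10.1 (n = 12 each). It was thus higher in haplogroups from Beijing than in those from the Netherlands, which that contrast called as well (edgeR adjusted p = 0.00115), 1 of 19 against 0.305% of all genes.

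Of the Imd pathway, 23 of 24 listed genes were tested, and 0 were called in either test by edgeR, DESeq2 or limma-voom. In edgeR, 4.15% of all genes were called over Y haplotypes and 2.04% over haplogroups. An unadjusted p under 0.05 was found for 2 over Y haplotypes, against 19.9% of all genes, and for 5 over haplogroups, against 15.9%. The 2 with the smallest p-values, both in the haplogroup test, were PGRP-SB1, a peptidoglycan-cleaving amidase (edgeR adjusted p = 0.157), and PGRP-LC, the receptor upstream of Rel (edgeR adjusted p = 0.164). With N03 0 were called by edgeR, against 0.152% of all genes, and 2 had an unadjusted p under 0.05, against 9.98%. The median log2 fold change of the list was 0.06, and PGRP-LC was at 0.22 ± 0.09 (edgeR adjusted p = 0.410). By Y haplotype PGRP-LC averaged 64.6 ± 13.4 CPM with N03 and 50.9 to 62.6 CPM with the other haplotypes.

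Antimicrobial and Bomanin peptides, secreted effectors whose genes are known targets of Dif, dl and Rel, were counted as a list of 26 genes, all tested. With N03, 0 of 26 were called by edgeR, against 0.152% of all genes. An unadjusted p under 0.05 was found for 10 of 26, against 9.98% of all genes. The 26 log2 fold changes had a median of 0.42, and 23 were positive. They ranged from −0.73 ± 0.22 for BomS6 (edgeR adjusted p = 0.157) to 1.07 ± 0.45 for AttA (edgeR adjusted p = 0.415). These values are given with all libraries only. The 26 genes were measured in the same libraries, so their signs are not 26 separate observations. Some single libraries were far above the rest. With N03, Def averaged 92.4 ± 120 CPM and reached 425 CPM in I02, and Dro averaged 426 ± 909 CPM and reached 3240 CPM in B39. In the Y haplotype test 1 of 26 was called, 3.85% of the list against 4.15% of all genes. That gene was BomS6, a short Bomanin peptide gene (edgeR adjusted p = 8.371e-05). BomS6 averaged 766 ± 377 CPM with N03, 841 ± 470 with ZW139, 925 ± 806 with N07, 1319 ± 1225 with B04, 1840 ± 850 with ZH23 and 2072 ± 835 with B11 (SD, n = 12 each). Among the contrasts of single Y haplotypes, 1 of the 26 was called with B11 and 1 with ZH23, each higher. Those contrasts called 2.46% and 1.36% of all genes.

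In the haplogroup test 5 of the 26 peptide genes were called, against 2.04% of all genes. They were AttD, an attacin (edgeR adjusted p = 0.00173), DptA, a diptericin (0.0206), BomBc1, a Bomanin (0.0258), Def, the defensin gene (0.0305), and Dro, drosocin (0.0437). Def averaged 109 ± 111 CPM in I02, 65.4 ± 71.7 in B39 and 63.1 ± 59.1 in B38, against 28.9 ± 14.1 in N01, 26.3 ± 30.2 in N23 and 23.9 ± 22.7 in N02 (SD, n = 12 each). DptA likewise had means of 76.2 to 147 CPM in the haplogroups from Beijing and Ithaca, against 12.2 to 32.2 CPM in those from the Netherlands, with SDs close to or above the means. These means were not adjusted for batch, and batch 2 is present in N01, N02 and N23 alone. They include all libraries, among them a library of I02 with N03 at 425 CPM of Def. Without the 6 libraries over 20%, 2 of the 26 were called. In batch 1 alone 0 of the 26 were called, and leaving out single libraries gave between 2, without replicate 2 of B38 with ZW139, and 7, without replicate 2 of B38 with B11. Rel, dl and Dif, the factors upstream of these genes, were not called in the same test.

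Marker lists of tissues were set beside the N03 contrast. Summed markers of the fat body, the main site of systemic peptide synthesis, had 1185 to 2559 CPM with N03, with a median of 1635. With the other haplotypes they had 1071 to 4071 CPM, with a median of 2200. Most of this sum was apolpp, with a median of 1514 CPM over all libraries, while Fbp1, Yp1, Yp2 and Yp3 had medians of 0 to 2.27 CPM. Blood cell markers had 273 to 454 CPM with N03, with a median of 372, against 282 to 721 CPM with a median of 384. Of the 9 tested markers of each tissue, 0 were called with N03 by edgeR, against 0.152% of all genes. An unadjusted p under 0.05 was found for 4 of the fat body and 2 of blood cells, against 9.98% of all genes.

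Eye markers had 1644 to 2143 CPM with N03, with a median of 1816, against 1391 to 5823 CPM with the other haplotypes, with a median of 2467. All 10 of them had a negative log2 fold change with N03, with a median of −0.50. Of these 10, 0 were called by edgeR and 9 had an unadjusted p under 0.05, against 9.98% of all genes. With N07 0 of the 10 were positive (median −0.35). All 10 were positive with B11, where 10 were called, and with ZH23, where 1 was. Among all tissue markers listed, Jon99Ciii, a midgut protease, and Dup99B, a seminal peptide, were called with N03, both lower, at −1.28 ± 0.28 and −4.28 ± 0.95 (edgeR adjusted p = 0.0362 each). Of the midgut markers 3 were called with B11 and 2 with ZH23, and of the accessory gland markers 1 with each, all higher. The B11 and ZH23 contrasts called 2.46% and 1.36% of all genes. The part of these tissue differences in the level of dl was not tested.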

How the data were processed

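The authors deposited raw counts of reads per gene, as a table of 72 columns, each the same as the file of its library. The submitters' processing notes name HTSeq 0.11.0, STAR 2.6, Trimmomatic 0.36, FastQC 0.11.5 and DESeq2. Their build, annotation and strand setting are not given in the sources used. Of the 17324 features, 17037 matched a symbol, and coordinates come from the Ensembl annotation of BDGP6.54.

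From the deposited counts, 12470 genes passed filterByExpr of edgeR 4.0.16 in R 4.3.3 and held 99.9% of the counts. With TMM scaling, haplogroup, Y haplotype, their interaction and batch were fitted to all 72 libraries by quasi-likelihood, with 35 residual degrees of freedom. Calls are at a Benjamini-Hochberg adjusted p under 0.05 over all genes tested, and standard errors are those implied by the F statistic. The fit was tested on simulated data. Alternatives used DESeq2 1.42.0, limma-voom (limma 3.58.1), other scaling, filters, terms and sets of libraries. Correlations used 100000 permutations, 2-sided, of log2 CPM with a prior count of 2. Replicates of a combination differed by 10.8 to 106 times the sampling variance (chi-square over its degrees of freedom), so each was counted as its own sample.

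The 4 genes and all lists were chosen with earlier results of these data known. Named are the 4 genes, the called genes of each pathway list or else the 2 with the smallest p, and the 3 genes most like each factor at a log2 CPM of 2 or more on average. Other genes named, those near dl, among tissue markers or at the ends of a range, were chosen after their values were seen. The Y haplotypes ZH23 and ZW139 are spelled as in the sample labels, which the series text writes otherwise.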

Additional observations from a re-analysis of the deposited data

How the results depend on the processing

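Of 527 results under alternatives other than leaving out single libraries, 480 kept their direction and side of the threshold or moved little. The cause of the changes below was not tested, except that batches hold fewer libraries.

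The adjusted p of dl in the Y haplotype test was 0.180 in batch 1 alone, 0.120 in batch 2 alone and 0.409 without the N03 libraries, and 6.632e-07 to 0.00279 under the others. Its N03 log2 fold change was 0.62 (adjusted p 0.180) in batch 1 and 0.80 (0.0980) in batch 2, and that of Beijing over Netherlands −0.50 (0.141), −0.39 (0.480) and, without N03, −0.19 (0.455). The number of the 4 genes called was therefore 0 in place of 1 in those fits. In B38, 1 of the 4 genes was called in place of 0 under DESeq2, limma-voom, no batch term and no interaction term, each time Dif, and 1 under the replicate block, cact at 0.23 (adjusted p 0.0314).

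Directions reversed for dl in B38 without the 6 libraries over 20% (0.0676 against −0.158), for Rel in B38 without them (−0.0115 against 0.115), and for cact between Beijing and Netherlands Y without the N03 libraries (0.0287 against −0.0509) and without replicate 1 of I02 with N03 (0.0174, in a range from −0.0971 over single libraries left out). None of these was called.

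Toll genes called by haplogroup numbered 1, and 3 with DESeq2, with no batch term or with the replicate block and 2 without interaction. Imd genes called numbered 0, and 1 by Y haplotype without the 6 libraries, also with the N23 library left out, and 4 by haplogroup with no batch term. Peptide genes called by Y haplotype numbered 1, and 2 with DESeq2, in batch 2 or without interaction. By haplogroup they numbered 5, and 12 with DESeq2, 3 with limma-voom, 8 with no batch term, 0 in batch 1, 9 with the replicate block, 2 without the 6 libraries and 3 without N03.

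Leaving out single libraries gave an N03 log2 fold change of dl of 0.57 to 0.71, a Beijing over Netherlands one of −0.55 to −0.42 and an adjusted p over Y haplotypes of 1.534e-05 to 0.00492. It gave 1 to 2 of the 4 genes called with N03 and likewise between Beijing and Netherlands. Called by Y haplotype and by haplogroup were 0 to 1 and 1 to 3 Toll genes, 0 to 1 and 0 to 1 Imd genes, and 1 to 3 and 2 to 7 peptide genes. The other haplotype and population contrasts were not run without single libraries.

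The replicate block gave dl an N03 log2 fold change of 0.65 (adjusted p 0.000292) and changed no call of the 4 genes other than cact in B38. Deviations of same-numbered libraries correlated from −0.58 to 0.743 over 630 pairs, over 0.1 in 314, and 70 of 72 libraries correlated best with their own number. The 2 deviations of a combination mirror each other, so these 72 are not separate observations. Within N01, N02 and N23, where 125 of 153 pairs were over 0.1, the number is also the batch, for which the main fit has a term. Within B38, B39 and I02, all of batch 1, 99 of 153 pairs were over 0.1, with a median of 0.173 and a minimum of −0.405. An effect shared by libraries of the same number is therefore possible, and beyond batch the main fit has no term for it. With the block, genes called over haplogroups numbered 1639 in place of 254, and those in B38 3265 in place of 1213. Between mitochondria from Beijing and the Netherlands they numbered 1830 in place of 38. With haplogroup before batch, the haplogroup share of the variance of dl was 10.2%. Genes called with N03 numbered 19, and 103 with DESeq2, 3 with limma-voom, 8 with no batch term, 60 without interaction, 77 with the replicate block and 2 without the 6 libraries, and those over Y haplotypes 517, and 875 with DESeq2, 929 with the block, 97 in batch 1 and 61 in batch 2.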
